A study of Mus musculus with 9 samples.

Results

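The immediate early genes described here are Fos, Fosb, Jun, Junb, Egr1, Atf3, Ier2, Ier3, Zfp36 and Btg2, 10 genes chosen by name. Of these, 9 were matched to a row of the deposited table and tested, each by 1 row, among 15372 tested gene symbols. Fosb was not analysed here. RNA came from the gastrocnemius, the large muscle of the calf. Wildtype mice and mdx mice received vehicle, and a further group of mdx mice received GTx-026, an androgen receptor agonist, at 10 mg/kg by subcutaneous injection. Each group had 3 libraries, and every library, mdx included, carried the strain label C57BL/6. The mdx mouse carries a body-wide mutation in Dmd, the gene of the muscle protein dystrophin, and is widely used as a model of Duchenne muscular dystrophy. For the animals' age and sex, the length of treatment and the time from death to freezing, nothing is given in the sources used here. Libraries were not tied to animals by any label, and the spread that the p-values measure is that between libraries, which may be technical.

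Immediate early genes are transcribed within minutes of a stimulus such as a growth factor, stretch, injury or stress, by transcription factors that are already present in the cell, and their messenger RNAs are short-lived. Their promoters are switched on through MAP kinase signalling to serum response factor and to CREB, which bind the CArG box and the cAMP response element. The proteins then act on later genes: the Fos and Jun families pair to form the AP-1 transcription factor, Egr1 binds GC-rich sites, and others such as Zfp36 and Btg2 limit the response. In skeletal muscle these genes respond to contraction, to injury and to the handling of the tissue, in muscle fibres as well as in the other cells of the muscle. In a whole muscle, fewer cells of a type and less RNA per cell cannot be told apart.

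The promoters of the 4 members whose groups did not overlap in mdx vehicle against wildtype (Fos, Junb, Ier3 and Zfp36), and of Btg2, which holds a full cAMP response element, are printed to show which of a few fixed motifs stand before these genes. The bases are upstream of the RefSeq start on the gene's own strand, from the GRCm38.p6 table of RefSeq, with the motifs found in capitals. The windows are chr12:85473640-85473889 on the plus strand for Fos, chr8:84978749-84978998 on the minus strand for Junb and chr1:134079156-134079405 on the minus strand for Btg2. For Ier3 the window is chr17:35821463-35821683 on the plus strand. For Zfp36 the 30 bases at chr7:28379267-28379296 on the minus strand are shown, a stretch around its CArG box that lies within an exon of the GENCODE annotation.
Fos: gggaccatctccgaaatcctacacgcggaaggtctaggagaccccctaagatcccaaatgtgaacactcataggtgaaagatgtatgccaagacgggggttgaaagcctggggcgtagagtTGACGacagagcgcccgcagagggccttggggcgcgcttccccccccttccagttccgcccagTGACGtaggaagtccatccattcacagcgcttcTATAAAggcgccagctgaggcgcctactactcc
Junb: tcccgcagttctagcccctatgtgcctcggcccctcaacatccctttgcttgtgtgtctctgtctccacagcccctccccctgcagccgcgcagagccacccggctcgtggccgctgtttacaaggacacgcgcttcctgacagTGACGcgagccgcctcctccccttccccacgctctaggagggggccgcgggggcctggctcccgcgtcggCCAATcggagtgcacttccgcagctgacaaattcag
Btg2: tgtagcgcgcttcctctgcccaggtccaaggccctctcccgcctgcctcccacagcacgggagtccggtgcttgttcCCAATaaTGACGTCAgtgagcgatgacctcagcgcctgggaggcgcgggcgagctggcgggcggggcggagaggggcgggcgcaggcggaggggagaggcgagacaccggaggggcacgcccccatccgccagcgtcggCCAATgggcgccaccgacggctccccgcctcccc
Ier3: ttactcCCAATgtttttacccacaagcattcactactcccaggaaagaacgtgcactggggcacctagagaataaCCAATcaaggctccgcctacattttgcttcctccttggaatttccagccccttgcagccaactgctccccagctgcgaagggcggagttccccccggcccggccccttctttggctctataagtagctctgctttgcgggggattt
Zfp36: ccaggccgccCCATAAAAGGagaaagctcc

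In these sequences TGACG is the core of the cAMP response element, TGACGTCA the full element, TATAAA the TATA box, CCAAT the CCAAT box and CCATAAAAGG the CArG box. Of the 9 tested members, 7 had an entry in the promoter table. TGACG was searched on both strands in the 250 bases upstream of each start and was found in 4 of these 7 (Fos, Junb, Btg2 and Atf3), against 17.8% of all 32851 promoters. The printed windows of Fos, Junb and Btg2 were 58.4%, 66.4% and 73.2% G or C, against a median of 52.4% over all promoters. The part of base content in these counts was not tested. Fos held it at 129 and at 66 bases upstream, and 3.90% of promoters held this motif in at least 2 places, a count that takes the strands of 1 full element separately. The full element TGACGTCA, which contains TGACG on either strand, was found in Btg2, 166 bases upstream, and in 1.55% of all promoters. A CArG box was found in Zfp36, 58 bases upstream, and in 1.47% of all promoters. Bases more than 250 upstream were not searched, so a CArG box there would be missed. Egr1 and Ier2 had no entry in the promoter table and were not searched. The CCAAT box was found in Btg2, Jun, Junb and Ier3 and in 33.8% of all promoters, and TATAAA in Fos and in 12.4%. The AP-1 sites TGACTCA and TGAGTCA were found in 0 of the 7 windows and in 4.46% of all promoters. The sites GCGTGGGCG and GCGGGGGCG, which Egr1 is known to bind, were found in Zfp36 and in 3.06% of all promoters. A match is a description of the letters, not evidence of binding.

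The table listed an estimated 25.1 M to 38.0 M reads per library, and the members had between 93 estimated reads (Egr1 in wildtype library 3) and 2782 (Jun in GTx-026 library 3). Levels are given in CPM, reads per 1000000 after scaling of the libraries to each other. Dmd, the mutated gene in mdx, was at 50.8 ± 9.30 CPM in wildtype libraries (SD, n = 3), 18.3 ± 5.97 CPM in vehicle-treated mdx libraries and 16.6 ± 2.07 CPM in GTx-026 libraries, with no overlap between wildtype and mdx libraries. Markers of fast muscle fibres, such as Ckm and Acta1, summed to between 124011 and 219726 CPM in every library. Differences are log2 fold changes of CPM plus 1, with the standard error (SE), and a gene was called where the Benjamini-Hochberg adjusted p of limma over all tested genes was under 0.05.

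No member was called in mdx vehicle against wildtype vehicle, a comparison that called 0.338% of all tested genes, but the levels of most members lay higher in mdx. At an unadjusted p under 0.05, 6 of the 9 members were higher in mdx (Fos, Junb, Egr1, Ier3, Zfp36 and Btg2) and 0 were lower, against 6.34% of all tested genes higher. For 4 members (Fos, Junb, Ier3 and Zfp36) every mdx vehicle library was above every wildtype library, as for 7.97% of all tested genes. The log2 fold change was above 0 for 8 of 9 members, the exception being Jun, and for 51.1% of all tested genes. The members' median log2 fold change was 0.65, and that of all tested genes 0.01. Under the deposited scaling and under scaling to the listed total alone, the median of all tested genes moved to 0.15 and 0.16, the members' median to 0.81 and 0.82, and all 9 members lay above 0.

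**Figure D1:**
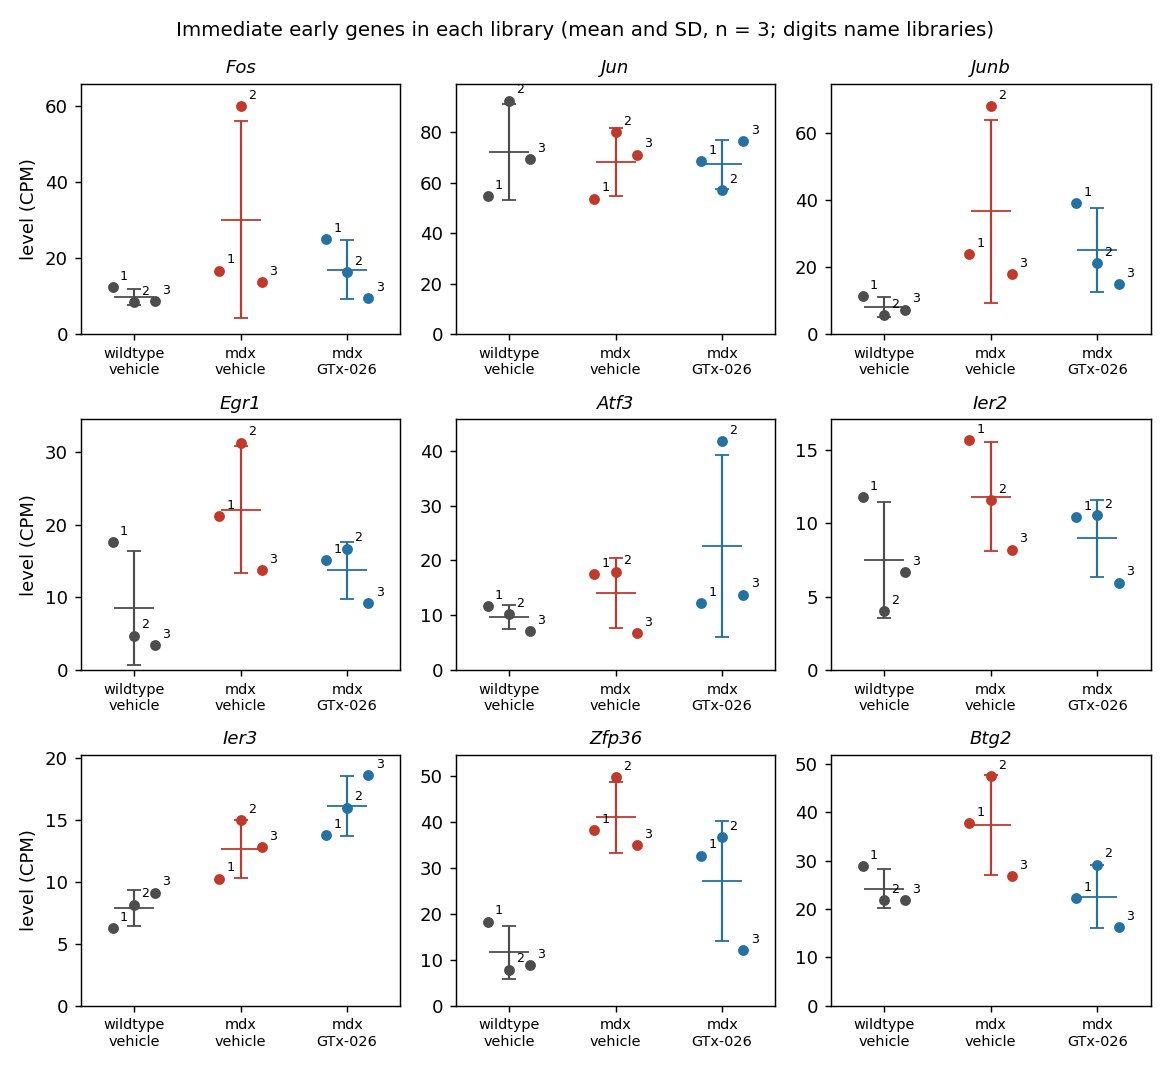
Level in CPM (y axis, linear from 0) of each of the 9 members in the 3 groups (x axis); points are libraries with their number, horizontal lines the means and bars the SD (n = 3). Library 2 of mdx vehicle is the highest point for Fos, Junb, Egr1, Zfp36 and Btg2, and library 2 of GTx-026 for Atf3.

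Fos and Junb, the AP-1 members whose levels differed most between libraries, had a similar order of libraries. Fos, which cannot pair with itself and joins a Jun protein to form AP-1, is a gene at chr12:85473890-85477273 (GRCm38, plus strand). It was at 12.3, 8.47 and 8.62 CPM in the wildtype libraries, at 16.7, 59.9 and 13.7 CPM in the mdx vehicle libraries and at 25.1, 16.2 and 9.55 CPM in the GTx-026 libraries. All 3 mdx vehicle libraries were above the wildtype ones, 1 of them far above the rest, and the GTx-026 libraries overlapped both groups. The mdx vehicle mean of 30.1 ± 25.9 CPM against 9.79 ± 2.15 CPM in wildtype gave a log2 fold change of 1.24 (SE 0.51, limma adjusted p = 0.363). Without mdx vehicle library 2 it was 0.60.

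Junb, a Jun family protein that forms AP-1 and can restrain Jun, lies at chr8:84974484-84978718 on the minus strand. Its level was 11.4, 5.71 and 7.31 CPM in the wildtype libraries, 23.9, 68 and 18 CPM in mdx vehicle and 39, 21.1 and 15 CPM with GTx-026. The 6 mdx libraries were all above the 3 wildtype libraries, and the vehicle and GTx-026 groups overlapped. The log2 fold change of mdx vehicle against wildtype was 1.85 (SE 0.49, limma adjusted p = 0.195), and that of GTx-026 against wildtype was 1.45 (SE 0.49, adjusted p = 0.233). Junb overlaps Prdx2, a peroxiredoxin gene on the opposite strand, and reads of such a pair cannot be told apart where counting ignores strand. Prdx2 was at 146 ± 6.33 CPM in wildtype, 121 ± 29.5 CPM in mdx vehicle and 145 ± 9.75 CPM in GTx-026 libraries. The part of Prdx2 reads in the Junb values was not tested.

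Jun, the AP-1 subunit that pairs with itself or with Fos, behaved differently from the others. It lies at chr4:95049034-95052222 on the minus strand as a single exon. Its level was 54.6, 92.5 and 69.4 CPM in the wildtype libraries, 53.6, 80.1 and 71.1 CPM in mdx vehicle and 68.4, 57.0 and 76.3 CPM with GTx-026. The groups overlapped throughout, and a wildtype library was the highest. The log2 fold change of mdx vehicle against wildtype was -0.07 (SE 0.22, limma adjusted p = 0.916), and it was 0.11 and 0.12 under the other scalings. Junos, an antisense gene that overlaps Jun on the opposite strand, was at 3.68 to 7.87 CPM over the 9 libraries. Its 3 highest libraries (mdx vehicle 2, wildtype 2 and GTx-026 3) and its lowest (mdx vehicle 1) were those of Jun, and without strand the reads of this pair cannot be told apart either.

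Atf3, a stress-induced factor of the ATF family that pairs with Jun proteins, lies at chr1:191170296-191218039 on the minus strand. Its level was 11.6, 10.2 and 7.17 CPM in the wildtype libraries, 17.5, 18 and 6.68 CPM in mdx vehicle and 12.3, 41.8 and 13.7 CPM with GTx-026. Library 2 of GTx-026 was the highest and library 3 of mdx vehicle the lowest of all 9, so the vehicle group spanned the wildtype values. In mdx vehicle against wildtype the log2 fold change was 0.41 (SE 0.48, limma adjusted p = 0.735), and leaving out single libraries moved it between 0.18 (without mdx vehicle library 2) and 0.84 (without mdx vehicle library 3). Against wildtype all GTx-026 libraries were higher, with a log2 fold change of 0.95 (SE 0.48, limma adjusted p = 0.471) that was 0.41 without GTx-026 library 2.

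Egr1, a zinc-finger transcription factor that responds to serum response factor, lies at chr18:34859823-34864984 on the plus strand. Its level was 17.6, 4.71 and 3.38 CPM in the wildtype libraries, 21.2, 31.3 and 13.8 CPM in mdx vehicle and 15.2, 16.7 and 9.25 CPM with GTx-026. Wildtype library 1 stood within the mdx range, and the other wildtype libraries were below every mdx library. Between mdx vehicle and wildtype the log2 fold change was 1.5 (SE 0.51, limma adjusted p = 0.285).

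Ier2, a small nuclear protein induced by growth factors, lies at chr8:84661331-84662852 on the minus strand. Its level was 11.8, 4.03 and 6.69 CPM in the wildtype libraries, 15.7, 11.6 and 8.21 CPM in mdx vehicle and 10.4, 10.5 and 5.95 CPM with GTx-026. All 3 groups overlapped, with mdx vehicle library 1 the highest and wildtype library 1 the next. The mdx vehicle libraries had a log2 fold change against wildtype of 0.65 (SE 0.36, limma adjusted p = 0.476), and it was 1.00 without wildtype library 1 and 0.33 without wildtype library 2.

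Ier3, a stress-induced protein that affects cell survival and MAP kinase signalling, was the only member called in any of the 3 comparisons. It lies at chr17:35821684-35822923 on the plus strand. Its level was 6.27, 8.17 and 9.13 CPM in the wildtype libraries, 10.3, 15 and 12.8 CPM in mdx vehicle and 13.8, 16.0 and 18.6 CPM with GTx-026. Every mdx library was above every wildtype library, and the vehicle and GTx-026 groups overlapped. It was higher in GTx-026 than in wildtype libraries, at 16.1 ± 2.42 against 7.85 ± 1.46 CPM, a log2 fold change of 0.96 (SE 0.19, limma adjusted p = 0.0475). This comparison called 1.48% of all tested genes. Its groups differ in both genotype and drug, which cannot be told apart in it. The call was lost with a pseudocount of 5 (adjusted p = 0.0516). It was lost too on leaving out wildtype library 1 (0.119), 2 (0.136) or 3 (0.115), mdx vehicle library 3 (0.0640) or GTx-026 library 1 (0.0984), 2 (0.158) or 3 (0.160), values that are limma adjusted p, while the log2 fold change stayed between 0.72 and 1.06 over the 18 alternatives run. In mdx vehicle against wildtype its log2 fold change was 0.63 (SE 0.19, limma adjusted p = 0.261). In GTx-026 against mdx vehicle the value of Ier3 was 0.33 (SE 0.19, limma adjusted p = 0.9996).

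Zfp36, also known as tristetraprolin, binds AU-rich elements in messenger RNAs, those of cytokines and early genes among them, and speeds their decay. It lies at chr7:28376784-28380253 on the minus strand. Its level was 18.3, 7.86 and 8.77 CPM in the wildtype libraries, 38.1, 49.6 and 34.9 CPM in mdx vehicle and 32.6, 36.6 and 12.2 CPM with GTx-026. Every mdx vehicle library was above every wildtype library by a wide margin, 2 GTx-026 libraries lay at the vehicle level and 1 within the wildtype range. The log2 fold change of mdx vehicle against wildtype was 1.81 (SE 0.41, limma adjusted p = 0.142), the smallest adjusted p of the members in this comparison. An antisense gene, Gm44710, overlaps Zfp36 on the opposite strand.

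Btg2, an antiproliferative protein that recruits the enzymes removing poly(A) tails, lies at chr1:134075170-134079120 on the minus strand. Its level was 28.8, 21.9 and 21.9 CPM in the wildtype libraries, 37.7, 47.5 and 26.8 CPM in mdx vehicle and 22.2, 29.2 and 16.2 CPM with GTx-026. Library 3 of mdx vehicle was below wildtype library 1, so these groups overlapped. The log2 fold change of mdx vehicle against wildtype was 0.58 (SE 0.25, limma adjusted p = 0.386). GTx-026 libraries averaged 22.5 ± 6.48 CPM against 37.4 ± 10.4 CPM with vehicle, a log2 fold change of -0.70 (SE 0.25, limma adjusted p = 0.9996).

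**Figure D2:**
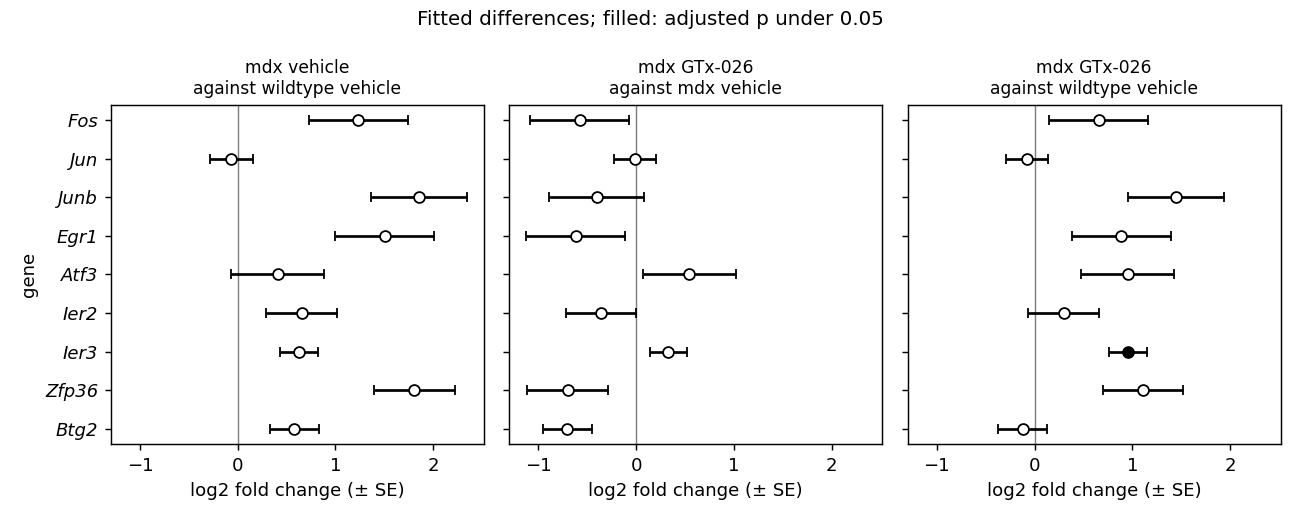
Log2 fold change (x axis) of each member (y axis) in the 3 comparisons, with bars for the SE; a filled point has a limma adjusted p under 0.05. Ier3 in GTx-026 against wildtype vehicle (0.96) is the only filled point.

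GTx-026 against vehicle in mdx muscle gave no called member, in a comparison that called 0.013% of all tested genes. Btg2 alone had an unadjusted p under 0.05, against 1.2% of all tested genes that were lower at that p. The groups overlapped for all 9 members, while 6.8% of all tested genes had groups without overlap. Atf3 (0.55) and Ier3 (0.33) had log2 fold changes above 0, and the other 7 members lay below 0, where 51.1% of all tested genes lay above it, with a median over the 9 of -0.40 against 0.00 for all tested genes. The values were -0.58 for Fos, -0.01 for Jun, -0.40 for Junb, -0.62 for Egr1, -0.36 for Ier2 and -0.70 for Zfp36, each with a limma adjusted p of 0.9996. Leaving out single libraries moved most of these. Without mdx vehicle library 2 Fos was at 0.06, Junb at 0.15 and Egr1 at -0.34, and without mdx vehicle library 1 Ier2 was at -0.15 and Ier3 at 0.19. Without mdx vehicle library 3 Fos was at -0.97, Junb at -0.78, Ier2 at -0.58 and Atf3 at 0.12. Without GTx-026 library 3 Zfp36 was at -0.22, Fos at -0.24, Junb at -0.11, Egr1 at -0.38 and Ier2 at -0.12. Without GTx-026 library 1 Fos was at -0.90, Junb at -0.77 and Atf3 at 0.85, and without GTx-026 library 2 Atf3 was at 0.01. The vehicle-treated mdx group enters this comparison and the preceding one, so their values are not independent.

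GTx-026 against wildtype vehicle had 3 members higher at an unadjusted p under 0.05 (Junb, Ier3 and Zfp36), against 7.44% of all tested genes. These groups differ in genotype as well as in drug, which cannot be told apart here. All GTx-026 libraries were above all wildtype libraries for 3 members (Junb, Atf3 and Ier3), as for 11.5% of all tested genes. The log2 fold change was above 0 for 7 of 9 members and 50.4% of all tested genes, with a median of 0.88 against 0.00. Zfp36 had a log2 fold change of 1.11 (SE 0.41, limma adjusted p = 0.293), and the remaining values were 0.66 for Fos, 0.88 for Egr1, 0.30 for Ier2, -0.08 for Jun and -0.12 for Btg2. Egr1 was at 0.47 without wildtype library 3, at 1.5 without wildtype library 1 and at 0.59 with a pseudocount of 5. Fos was at 0.34 without GTx-026 library 1 and 0.99 without GTx-026 library 3, and Ier2 ranged from -0.03 (without wildtype library 2) to 0.63 (without wildtype library 1). In the authors' deposited table the unadjusted p of wildtype against mdx vehicle was 0.00138 for Ier3, 0.00691 for Zfp36, 0.165 for Junb and 0.252 for Fos. For the other members this unadjusted p of the authors was 0.0989 for Egr1, 0.121 for Btg2, 0.272 for Ier2, 0.317 for Atf3 and 0.623 for Jun. For wildtype against GTx-026 the authors' unadjusted p was 0.0471 for Ier3, where the unadjusted p of limma was 0.00068. It was 0.0798 for Junb, 0.159 for Fos, 0.161 for Zfp36 and 0.312 for Atf3. For Egr1, Ier2, Jun and Btg2 the authors' unadjusted p was 0.390, 0.583, 0.905 and 0.999.

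Because handling at dissection can move these genes, each library was described against the median of the 9 libraries for each gene. Library 2 of mdx vehicle was above that median for all 9 members, among the 3 highest libraries for all 9 and the highest for 5, with a median log2 difference of 0.59. Library 1 of mdx vehicle was among the 3 highest for 7 members, with a median of 0.39, and was highest for Ier2 and lowest for Jun. Library 3 of mdx vehicle was among the 3 highest for 0 members, with a median of 0.00, and lowest for Atf3. The vehicle-treated mdx group was thus not uniform: its level for Fos spanned 4.39-fold and for Junb 3.78-fold.

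The wildtype libraries differed as well. Wildtype libraries 2 and 3 were each among the 3 lowest for 8 of 9 members, with median differences of -0.63 and -0.61, while wildtype library 1 was among the 3 lowest for 3, with a median of -0.14. Wildtype library 1 exceeded the other wildtype libraries for 7 members, all but Jun and Ier3, and Egr1 spanned 5.20-fold within the group. Of the GTx-026 libraries, library 2 was above the 9-library median for 8 members (median difference 0.16), library 1 had a median difference of 0.00 but raised values of Fos and Junb (0.83 and 1.08), and library 3 was among the 3 lowest for 5 members (median -0.47) and the highest for Ier3.

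**Figure D3:**
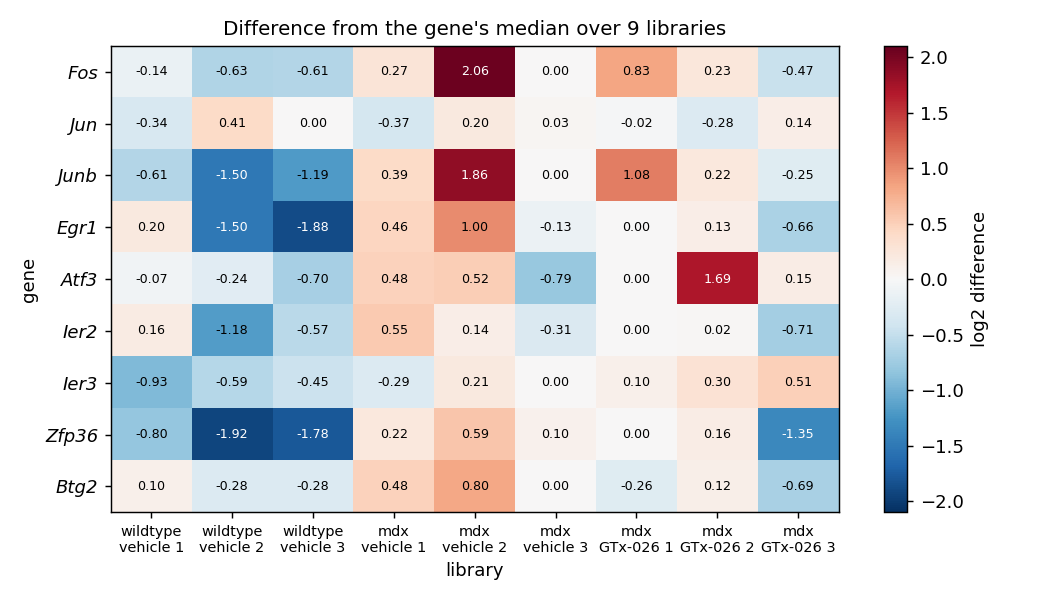
Log2 difference of each member (rows) in each library (columns) from that gene's median over the 9 libraries, on a colour scale from blue (lower) to red (higher), with the value in each cell. The column of mdx vehicle library 2 is above 0 throughout, up to 2.06 for Fos, and wildtype libraries 2 and 3 are below 0 for every member but Jun.

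Within groups most members were more variable than other genes of like level. The residual SD of log2 values was 0.76 for Fos, 0.76 for Egr1, 0.73 for Junb, 0.71 for Atf3, 0.61 for Zfp36 and 0.52 for Ier2, against a median of 0.22 over 9153 genes at 5 to 100 CPM. These lie at percentiles 96.3, 96.2, 95.9, 95.7, 93.8 and 90.8 of those genes. Btg2 (0.35, percentile 78.8), Jun (0.30, percentile 70.6) and Ier3 (0.23, percentile 54.1) were less variable. Ier3 thus had the lowest residual SD of the members, and it was the member called.

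Leaving out single libraries moved the members unequally in mdx vehicle against wildtype. In place of 6 members with an unadjusted p under 0.05, there were 3 without mdx vehicle library 2, wildtype library 2 or wildtype library 3, 7 without wildtype library 1, and 5 or 6 without any other. Without mdx vehicle library 2 the value of Junb was 1.3 and that of Egr1 1.22. Zfp36 stayed between 1.6 and 2.16 and Ier3 between 0.49 and 0.76 whichever library was left out. Egr1 was highest, at 2.13, without wildtype library 1. No member was called under any of the 18 alternatives run for this comparison.

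**Figure D4:**
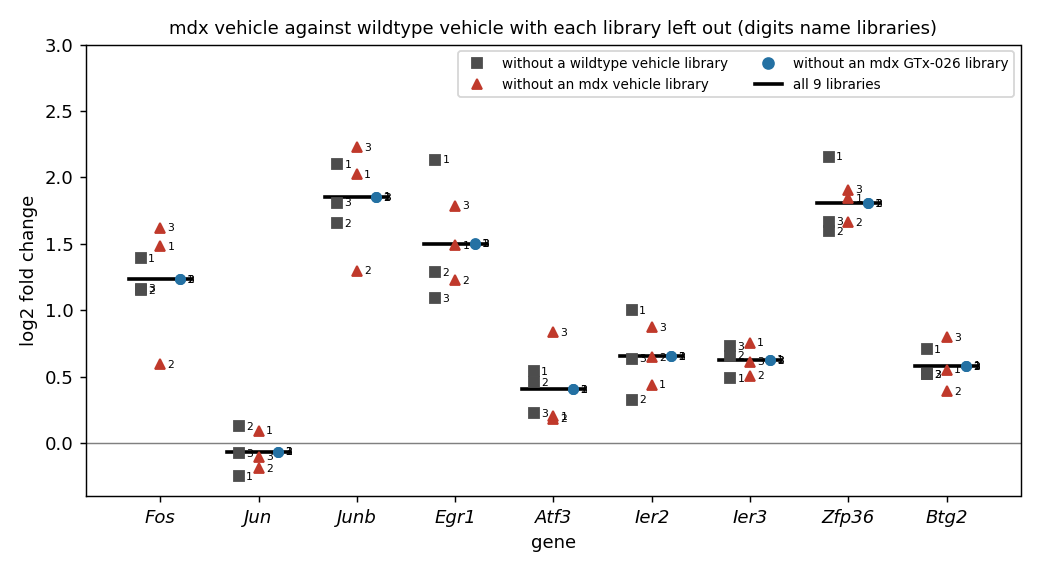
Log2 fold change of mdx vehicle against wildtype vehicle (y axis) for each member (x axis) with all 9 libraries (bars) and with each library left out (points, labelled with the library's number; the shape gives its group). Fos is at 0.60 without mdx vehicle library 2 against 1.24 with all libraries, and Jun lies on both sides of 0.

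Per kilobase of merged exons, so that genes can be compared, Jun was the most abundant member in wildtype muscle at 22.6 ± 5.99 CPM per kilobase (SD, n = 3). Btg2 at 8.82 ± 1.46, Ier3 at 6.95 ± 1.29 and Ier2 at 4.93 ± 2.59 CPM per kilobase came next, neighbours whose ranges of mean ± SD met. Atf3 at 4.49, Fos at 4.16, Junb at 3.54 and Zfp36 at 3.35 CPM per kilobase differed by less than their spread. Egr1 had the lowest mean, 1.91 ± 1.75, a range of mean ± SD that met those of all other members but Jun, Btg2 and Ier3. In mdx vehicle libraries Junb at 15.9 ± 11.9, Btg2 at 13.6 ± 3.78, Fos at 12.8 ± 11, Zfp36 at 11.8 ± 2.22 and Ier3 at 11.2 ± 2.08 CPM per kilobase had means below that of Jun, 21.4 ± 4.22, and did not differ among themselves beyond their spread. In GTx-026 libraries Jun stood at 21.1 ± 3.06 and Ier3, at 14.3 ± 2.14 CPM per kilobase, had the next highest mean. Junb at 10.9 ± 5.43 and Atf3 at 10.5 ± 7.73 CPM per kilobase had ranges of mean ± SD that met that of Ier3. The range of Atf3 met that of Jun too. Merged exon length takes in bases that not every transcript holds, so these orders depend on the annotation.

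The relatives of the members in the AP-1 and ATF families had no common direction. Of 17 listed, 11 were tested: in mdx vehicle against wildtype 5 lay above and 6 below 0 (8 and 3 under either other scaling), with a median log2 fold change of -0.02 (0.15 under the deposited scaling and 0.16 under the listed total). None was called or had an unadjusted p under 0.05. Fosl2, a Fos family member, was at 0.45 (limma adjusted p = 0.580) and Atf5, a stress-responsive ATF factor, at -0.46 (limma adjusted p = 0.595). Leaving out wildtype library 1 gave 0.14 for Fosl2, and leaving out mdx vehicle library 1 gave -0.05 for Atf5.

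Other early transcription factors, the Nr4a and Klf families among them, were above 0 for 10 of the 14 tested (17 listed), with a median of 0.12, 0 called and 1 higher at an unadjusted p under 0.05, against 6.34% of all tested genes. Nab1 and Nab2, corepressors that bind Egr1, lay at 0.56 (limma adjusted p = 0.402) and 0.73 (limma adjusted p = 0.375). Without mdx vehicle library 1 these were 0.33 and 0.39, and without mdx vehicle library 2 Nab2 was at 1.11. Unlike Egr1 itself, both were highest in mdx vehicle library 1, Nab2 at 20.6 CPM and Nab1 at 16.3 CPM, and Nab2 was at 6.99 CPM in mdx vehicle library 2, below 2 wildtype libraries.

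Other early response genes, such as the Dusp phosphatases, Gadd45 genes and the relatives of Zfp36 and Btg2, lay mostly higher in mdx vehicle than in wildtype. Of 28 tested (30 listed) 24 were above 0, against 51.1% of all tested genes, with a median of 0.55. None was called, 10 were higher and 0 lower at an unadjusted p under 0.05 (6.34% and 6.36% of all tested genes). Of the 28, 5 had every mdx vehicle library above every wildtype library (7.97% of all tested genes), and 1 had every one below (8.5%). Zfp36l1, which like Zfp36 binds AU-rich elements, had 28.5, 20 and 19.3 CPM in the wildtype libraries and 54.8, 39.5 and 36.3 CPM in those of mdx vehicle, a log2 fold change of 0.91 (SE 0.19, limma adjusted p = 0.113). Nfkbiz, an inducible nuclear regulator of NF-kB, was at 1.24 (SE 0.33, limma adjusted p = 0.195), and at 0.70 with a pseudocount of 5. In GTx-026 against mdx vehicle 22 of the 28 lay below 0, with a median of -0.23, and in GTx-026 against wildtype 22 lay above 0, with a median of 0.39. In both, 0 were called, with 0 higher and 1 lower at an unadjusted p under 0.05 in the former (1.97% and 1.2% of all tested genes) and 7 higher and 1 lower in the latter (7.44% and 5.11%).

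The kinases and serum response factors that act upstream of early genes had a median near 0. Of 19 tested (20 listed) 8 lay above and 11 below 0 in mdx vehicle against wildtype, with a median of -0.07, and 11 above and 8 below under either other scaling, with medians of 0.10 and 0.11. None was called, 0 were higher and 2 lower at an unadjusted p under 0.05, against 6.34% and 6.36% of all tested genes. For 6 of the 19 every mdx vehicle library was below every wildtype library, as for 8.5% of all tested genes, and for 0 above. Rps6ka2, a ribosomal S6 kinase, averaged 199 ± 51.6 CPM over wildtype and 106 ± 31.5 CPM over mdx vehicle libraries (log2 fold change -0.91, limma adjusted p = 0.243). Mapk9, which encodes JNK2, a kinase of Jun, was at -0.42 (limma adjusted p = 0.321), and at -0.25 and -0.24 under the other scalings.

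Heat shock genes, some of which respond quickly to stress, lay mostly below 0. All 12 were below 0 in mdx vehicle against wildtype, with a median of -0.30, while 10 of 12 were under either other scaling, with medians of -0.13 and -0.12. None was called, and 0 were higher and 2 lower at an unadjusted p under 0.05, against 6.34% and 6.36% of all tested genes. For 3 of the 12 every mdx vehicle library was below every wildtype library, against 8.5% of all tested genes. Hsph1, a co-chaperone of Hsp70, averaged 64 ± 12.4 CPM over wildtype and 40.2 ± 8.05 CPM over mdx vehicle libraries (log2 fold change -0.66, limma adjusted p = 0.207), and Hspd1, the mitochondrial chaperonin, was at -0.57 (limma adjusted p = 0.284). In GTx-026 against mdx vehicle 11 of the 12 lay above 0, with a median of 0.31, 0 called, and 0 with an unadjusted p under 0.05. Of these, 2 had every GTx-026 library above every vehicle library, against 3.67% of all tested genes. Of 9 inflammatory cytokine genes 1 was tested, Il1b, at 0.55 to 1.36 CPM over the 9 libraries.

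**Figure D5:**
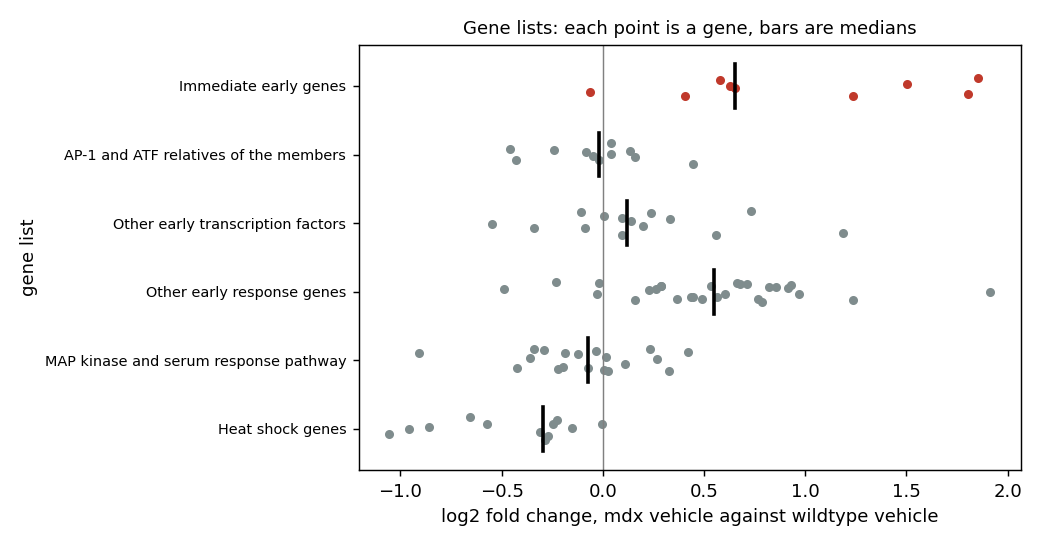
Log2 fold change of mdx vehicle against wildtype vehicle (x axis) for each tested gene (points) of the members and of 5 lists (y axis), with bars at the medians. The medians are 0.65 for the members and 0.55 for other early response genes, against -0.02 for AP-1 and ATF relatives (0.15 and 0.16 under the other scalings) and -0.30 for heat shock genes (-0.13 and -0.12).

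Macrophage markers differed between the groups too. Of 11, 10 were tested (Adgre1 was not). All 10 lay above 0 in mdx vehicle against wildtype, as did 51.1% of all tested genes. Of the 10, 1 was called (Lgals3), against 0.338% of all tested genes. For 2 of the 10 every mdx vehicle library was above every wildtype library, as for 7.97% of all tested genes. The summed level of the 10 ranged from 39.5 to 96.5 CPM in wildtype, 108 to 403 CPM in mdx vehicle and 259 to 337 CPM in GTx-026 libraries. Lgals3 alone made up 3.24 to 7.52 CPM of the wildtype sums, 27.5 to 189 CPM of the mdx vehicle sums and 66.8 to 98.5 CPM of the GTx-026 sums. In GTx-026 against wildtype, where Ier3 was called, all 10 macrophage markers lay above 0, as did 50.4% of all tested genes. Of these markers 2 were called (C1qc and Lgals3), against 1.48% of all tested genes. For 9 of 10 every GTx-026 library was above every wildtype library, as for 11.5% of all tested genes. Library 2 of mdx vehicle, the highest for 5 of the members, had the lowest macrophage sum of the 6 mdx libraries, 108 CPM. Fibroblast markers, 6 of 6 tested and all above 0, summed to 450 to 633 CPM in wildtype, 604 to 1445 CPM in mdx vehicle and 925 to 1520 CPM in GTx-026 libraries. In GTx-026 against wildtype 1 of the fibroblast markers was called (Pdgfra), against 1.48% of all tested genes. For all 6 the GTx-026 libraries were above the wildtype ones, as for 11.5% of all tested genes. Endothelial markers, 8 of 8 tested and all below 0 in mdx vehicle against wildtype (7 of 8 under either other scaling), summed to 164 to 288, 132 to 218 and 137 to 263 CPM in the same order.

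Other marker sums varied within the groups. Slow fibre markers summed to 1016 to 10180 CPM in wildtype, 276 to 8285 CPM in mdx vehicle and 902 to 13524 CPM in GTx-026 libraries. Cd52, the only tested marker of 9 for lymphoid cells, was at 37.8 CPM in wildtype library 1, 110 CPM in mdx vehicle library 1 and 26.2 CPM in GTx-026 library 2, and at 0.98 to 5.84 CPM in the other libraries. Among 7 neutrophil markers only Cxcr2 was tested (S100a8 and S100a9 were not), at 7.82 to 15.2 CPM over the 9 libraries. The part of these cell types in the members' values was not tested.

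The genes whose levels followed the members most closely were ranked by Pearson's r over the 9 libraries with the mean standardised level of the 9 members, among 10334 genes at 5 CPM or more. The highest were Cnksr3 (0.948), Foxo1 (0.935), Rnpc3 (0.932), Bmp4 (0.913), Atxn7l2 (0.902) and Socs3 (0.890). The libraries share the group difference and the scaling, and these values are a description without a test. Socs3, a feedback inhibitor of cytokine signalling, was at 10.2, 4.78 and 3.42 CPM in the wildtype libraries, 11.1, 69.3 and 17.1 CPM in mdx vehicle and 53.5, 22.2 and 12.5 CPM with GTx-026, with libraries 2 of mdx vehicle and 1 of GTx-026 highest, as for Fos and Junb. Foxo1, a transcription factor of muscle atrophy and fasting, was at 21.3, 18.9 and 19.2 CPM in the wildtype libraries, 37.7, 48.1 and 21.2 CPM in mdx vehicle and 28.9, 32.8 and 19.6 CPM with GTx-026. Bmp4, a secreted growth factor, was at 4.36 ± 0.14 CPM in wildtype, 8.27 ± 1.97 CPM in mdx vehicle and 7.27 ± 1.64 CPM in GTx-026 libraries. Every mdx library was above every wildtype library for Bmp4, and also for the members' mean by which Bmp4 was picked.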

How the data were processed

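PolyA RNA of 9 gastrocnemius libraries was sequenced on an Ion Torrent Proton, per the labels' protocols. Bowtie2 2.2.4, TopHat2 2.0.13, HTSeq 0.6.1p1, SAMtools 0.1.19, DESeq2 1.6.3 and GRCm38.p3 are named in the submitters' processing notes, without their roles. Annotation and strandedness are not given in the sources used here. In the deposited table the signal is a read number for each of 46442 records, scaled by 1 factor per library by the authors. A ratio of the authors' group means and an unadjusted p-value stand beside them for each pair of groups, per the file headers. Columns name groups only, so a library's number pairs nothing.

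Records above 0 in all 9 libraries were summed by symbol, and other records of the same symbol were left out of the sum. Of 15593 symbols, 15372 had at least 1 record above 0 in all 9 libraries and were tested. The 4 records without a symbol, 0.000646% of the signal, were left out. Sums were divided by estimated listed reads and by a trimmed-mean factor (0.874 to 1.30, trims 30% and 5%). Testing used limma 3.58.1 in R 4.3.3, with trended variance and Benjamini-Hochberg adjustment at 0.05. All 3 groups were in 1 model (6 residual degrees of freedom and 3.54 prior), fitted to log2(CPM + 1). A fold change on this scale understates that of low genes. The 3 comparisons share groups and 1 pooled spread. Gene positions are from GENCODE vM21 (GRCm38). Of the members' 50-base words, 0% were shared with another gene, except 1.76% for Zfp36. Named were the members, Dmd and the 6 genes most like the members. From each list came the called or otherwise the 2 lowest-p genes at 5 CPM or more. Junos, Prdx2, Gm44710, Hspa1a, Hspa1b and the markers named were added for their overlap, list or size of difference. The members and lists were chosen with earlier results of these data known. Alternatives changed scaling, pseudocount, filter, records, groups in the model, the variance trend or left out 1 library. The model was also run on simulated data, in which all genes had the same spread between libraries besides counting noise. Most members were more variable than other genes, so that run does not measure what could be called among the members.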

Additional observations from a re-analysis of the deposited data

How the results depend on the processing

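Over the 18 alternatives run for each comparison, the number of members called stayed at 0 in mdx vehicle against wildtype and in GTx-026 against mdx vehicle. In GTx-026 against wildtype it fell from 1 to 0 with a pseudocount of 5 and ranged from 0 to 1 with 1 library left out. Genes called numbered 52 in mdx vehicle against wildtype, 332 with no filter on low values and 5 with only the 2 groups in the model. Leaving out 1 library gave 5 to 93: 24, 9 and 5 without wildtype 1, 2 and 3, 93 and 9 without mdx vehicle 2 and 3, and 34, 14 and 30 without GTx-026 1, 2 and 3. The 52 were 29 higher and 23 lower, against 30 and 12 under the deposited scaling and 28 and 10 under scaling to the listed total alone. In GTx-026 against mdx vehicle 2 genes were called, 4 under either of those scalings, 1 with a pseudocount of 5, 96 with no filter, 1 with only the 2 groups, and 0 to 2 with 1 library left out. In GTx-026 against wildtype 227 were called, 509 with no filter, 421 with only the 2 groups, and 45 to 374 with 1 library left out. In the deposited table the lowest signal above 0 was 10 to 10.8, and 0 records were at 0 in only part of a group. With no filter, records at 0 in all libraries of a group, which have no spread there, enter the test. Their part in the larger counts was not tested.

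Values below carry no call. Jun turned to 0.11 and 0.12 in mdx vehicle against wildtype, and to 0.031 and 0.034 in GTx-026 against wildtype, under the deposited scaling and the listed total. With 1 library left out, Jun ranged from -0.25 to 0.13 in mdx vehicle against wildtype, from -0.18 to 0.11 in GTx-026 against mdx vehicle and from -0.28 to 0.12 in GTx-026 against wildtype. In GTx-026 against mdx vehicle Fos ranged from -0.97 to 0.061 and Junb from -0.78 to 0.15, and in GTx-026 against wildtype Ier2 from -0.030 to 0.63 and Btg2 from -0.32 to 0.082. The other members kept their direction in all alternatives. The causes were not tested. No paired analysis was possible because the column numbers name no animal or shared batch. The edgeR and DESeq2 alternatives were not run: values below 10000 lay within 0.1 read of whole multiples, but reads estimated this way were not taken as counts. Fewer than 100 estimated reads lie behind the lowest value, Egr1 in wildtype library 3 (93), and 3 libraries a group limit what can be called.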
